A study of Homo sapiens with 27 samples.

Results

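The replication-dependent histone genes were taken as every gene whose symbol begins with HIST1H, HIST2H, HIST3H or HIST4H in the deposited tables, which gave 71 of 20268 genes. They comprised 6 linker histone H1 genes, 17 H2A, 18 H2B, 15 H3 and 15 H4 genes. By position, 55 belong to the HIST1 cluster on chromosome 6, 12 to HIST2 and 3 to HIST3 on chromosome 1, and 1 to HIST4 on chromosome 12. Reads had been counted by Poly(A)-ClickSeq (PAC-seq), which primes on stretches of A and so reports RNA that ends in a poly(A) tail, in 27 libraries of total RNA from 3 human prostate cancer cell lines. LNCaP depends on androgen, LNCaP95 was derived from it and grows without androgen, and 22Rv1 is another line that does not need the hormone. In each line, cells had been infected with lentivirus that carried a control shRNA (CTRL sh) or with either of 2 that target CPSF1, called CPSF1 sh1 and sh2, then selected with puromycin, seeded at 500000 per well and grown for 72 h, with 3 libraries per group. All 3 lines were kept in RPMI medium with serum, but that of LNCaP95 was free of phenol red, so for LNCaP95 the medium cannot be told apart from the line. The controls therefore also carried a lentiviral shRNA and had been through puromycin.

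These genes supply the histones that package newly copied DNA, and their mRNA is made mainly in S phase. The mature mRNA is unusual in that it ends in a short conserved stem-loop, bound by the stem-loop binding protein SLBP and cut just downstream with the help of the U7 snRNP, and carries no poly(A) tail. Some of the genes can also give polyadenylated transcripts when a downstream poly(A) signal is used. CPSF1 is the large subunit of the complex that recognises the poly(A) signal AAUAAA at ordinary mRNAs. A method that reads poly(A) ends should therefore see only the polyadenylated share of histone RNA, together with any priming at A-rich sequence inside the RNA.

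The sequences at the ends of the genes were read first, because they show both kinds of end signal. The stem-loop (CTTTTNAG, read on the gene strand with flanking bases that can pair) lay within 100 bases of the end of the coding sequence in 65 of 71 genes, and in 34 of 20174 other genes (0.169%; 0.489% of all genes). When the position was counted from any coding exon it was found in 68 of 71, the exceptions being HIST1H2BI, HIST1H3E and HIST1H4L. The following stem-loops, on hg19 and 5′ to 3′ with the loop in capitals, belong to genes that carry the results below.
HIST1H4C stem-loop, chr6:26104545-26104560, plus strand: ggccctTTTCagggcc
HIST1H1C stem-loop, chr6:26055972-26055987, minus strand: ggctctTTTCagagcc
HIST2H2AC stem-loop, chr1:149858941-149858956, plus strand: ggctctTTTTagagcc
HIST1H2BD stem-loop, chr6:26158815-26158830, plus strand: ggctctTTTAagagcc
They began 61, 31, 30 and 40 bases beyond the coding end, and in each the bases on both sides of the loop paired without a mismatch.

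A poly(A) signal beyond the stem-loop was less common. Among the 68 genes with a counted 3′ UTR, AATAAA occurred in the last 350 bases of that region in 21 (30.9%, against 66.0% of other genes and 65.9% of all genes), and ATTAAA in 6 (8.82%, against 27.8% of other genes). The first AATAAA within the counted 3′ UTR, shown in capitals with its flanks, sat close to the stem-loop in some genes and far downstream in others. Distances run along the genome, and bases outside the counted region were not searched. The counted region of HIST1H2BK holds 997 bases in all, so the distance given for it spans bases that were not searched.
HIST1H1C, chr6:26055942-26055971, minus strand, 59 bases beyond the coding end: accactgatctcAATAAAagagctggataa
HIST2H2AA3, chr1:149813759-149813788, minus strand, 100 bases beyond: cccacgttttcaAATAAAagagttgttaat
HIST1H4C, chr6:26104709-26104738, plus strand, 237 bases beyond: gaggtaagcgctAATAAAgtgattggctcc
HIST2H2BE, chr1:149856015-149856044, minus strand, 1781 bases beyond: gctattgttattAATAAAgttaccaattaa
HIST1H2BK, chr6:27106080-27106109, minus strand, 8103 bases beyond: gccctgtaccttAATAAAtttgtatgcctt
HIST2H2AC had no AATAAA in its counted region. Over the whole counted 3′ UTR, the 24 genes with AATAAA had a median control level of 4.28 CPM and 19 of them reached 1 CPM. The 44 without it had a median of 0.069 and 3 reached that level. Counted regions differ in length, with a median of 359 bases but 2100 in HIST2H2BE and 4667 in HIST1H2BN. A longer region can hold more matches and more reads, and these levels are not scaled to length. The part of length was not tested. Here and below a level in CPM is the number of reads in a region scaled to 1000000 reads of that library over the 4 tables. A match is only a run of letters, and it does not say that the site is used.

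A-rich sequence was looked for after the levels had been seen, since PAC-seq primes on A. The counted 3′ UTR of HIST1H4C holds the most A-rich stretch of any member, 35 bases beyond the coding end and upstream of its stem-loop, with 18 A in 20 bases.
HIST1H4C, chr6:26104519-26104538, plus strand, A in capitals: AAAAAAcAAAAAcAAAAAAA
In HIST2H2AC a stretch just before the stem-loop had 13 A in 20.
HIST2H2AC, chr1:149858921-149858940, plus strand, A in capitals: AcAAAcAAAccAAgAccAAA
Windows with more than 12 A in 20 bases were present in the counted 3′ UTR of 23 members. They were present in the coding sequence of 3 of 71 members (4.23%), against 16.6% of 3107 other genes of the same coding length. The tables give counts per region and not the position of each read end, so reads that end at a poly(A) signal and reads that start from inner A stretches cannot be told apart in any value below.

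The 4 tables together held 3452413 to 12425417 reads per library, and the 10 kb table was the shallowest with 170330 to 728430. The shallowest library, 22Rv1 CTRL sh replicate 1, also stood apart for the members. It had 488 CPM in coding sequence against 254 and 279 in the other 2 controls of that line. Results in 22Rv1 include this library unless stated otherwise. The luminal prostate markers KRT8, KRT18 and HOXB13 had medians from 105 to 501 CPM in the 3′ UTR table over the 9 libraries of each line. KRT5, TP63, COL1A2, PTPRC and CD3E, markers of basal, fibroblast and blood cells, had a median of 0 in each line, while KRT14, COL1A1 and COL3A1 had reads in at least 1 line, with medians of at most 19.8. After knockdown the prostate antigen gene KLK3 fell by 2.12 on the log2 scale in LNCaP (SE 0.12) and by 1.57 in LNCaP95 (SE 0.15), and its part in the histone levels was not tested. CPSF1 itself was measured at 65.6, 72.7 and 78.7 CPM in its 3′ UTR in the LNCaP controls and at 29.4 to 46.2 (median 34.0) after knockdown, a log2 change of -1.19 ± 0.17 (SE, adjusted p = 8.31e-05). The change was -1.05 ± 0.18 in LNCaP95 (adjusted p = 0.000301) and -0.73 ± 0.14 in 22Rv1 (adjusted p = 0.0164). The 22Rv1 call was lost without CTRL sh replicate 3, CPSF1 sh2 replicate 2 or CPSF1 sh2 replicate 3, with an adjusted p of at most 0.0545. All adjusted p-values are from edgeR's quasi-likelihood test over all genes of a table, adjusted by the Benjamini-Hochberg method, with 3 control and 6 knockdown libraries per line, and 0.05 as the threshold.

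Reads of the histone genes came from a small number of them and from different regions in different genes. Over the 27 libraries the members had 138403 reads in 3′ UTRs (62 genes with any read), 65099 in the 10 kb downstream (65 genes), 50868 in coding sequence (52 genes) and 12699 in introns (21 genes). In the controls 39 members reached 1 CPM over the 4 tables. The largest share of the reads lay in the 3′ UTR in 16 of these, in the 10 kb downstream in 15, in coding sequence in 5 and in introns in 3.

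HIST1H4C, which encodes the core histone H4, had 221 CPM in its 3′ UTR (mean of the 3 control line means), 43.0% of the summed 3′ UTR level of all members. The coding sequence of HIST1H4C had 0.0322 and its 10 kb region had no reads in the controls. HIST2H2AA3 (H2A) followed with 56.7, HIST1H1C (linker histone H1) with 43.5 and HIST2H2AA4 (H2A) with 43.3, and the leading 12 genes made up 94.3% of the sum. On a scale per kilobase of counted sequence the order was HIST1H4C at 668 CPM per kb, HIST1H1C at 125, HIST2H2AA4 at 104, HIST2H2AA3 at 84.9 and HIST2H2AC at 40.1.

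The coding table was led by other genes. HIST1H1C had 97.4 CPM there, 68.8% of all its reads, and HIST1H1E, another linker histone, had 75.5, which was 93.9% of its reads. HIST2H2AC (H2A) followed with 34.1, HIST2H2AA3 with 24.3 and HIST1H1B with 7.28, and these 5 held 97.3% of the coding reads of the members. Per kilobase of coding sequence the values were 152 for HIST1H1C, 115 for HIST1H1E, 88.1 for HIST2H2AC and 62.3 for HIST2H2AA3. The richest 20-base coding windows of HIST1H1C, HIST1H1E, HIST2H2AC and HIST1H1B each held 12 A, and that of HIST2H2AA3 held 10.

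In the 10 kb table HIST1H2BF (H2B) had 100.2 CPM, 43.3% of the sum, while its own 3′ UTR had 0.837. HIST1H4H (H4) followed with 37.2 and HIST3H2A (H2A) with 11.4. These regions are not private to a gene: 40 of the 71 share bases with the 10 kb region of another gene, and 25 share at least 50% of them. HIST1H3B, HIST1H3D, HIST1H3H and HIST1H3I, whose regions are shared in full, had no 10 kb reads in the controls. How reads in shared bases were counted is not given in the sources used here. Such reads may be missing from both genes, and the level of a partly shared region may come from its unshared bases alone. That of HIST1H2BF shares 56.4% with the region of HIST1H4E and, in a newer annotation (Gencode v44 on the same build), covers 499 exonic bases of a processed pseudogene. That of HIST1H4H covers 869 exonic bases that the newer annotation gives to the same gene under its newer name H4C8, and 348 of a histone pseudogene, H2AC10P. In that annotation 35 members have exons of some gene in the 10 kb region, and 8 have exons of the same gene there. Among the 8 are HIST3H2BB (4247 bases), HIST2H3PS2 (2793) and HIST1H3E (1558). A 10 kb level, or its change, is therefore that of a stretch of genome, and which transcript it came from was not tested.

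**Figure D1:**
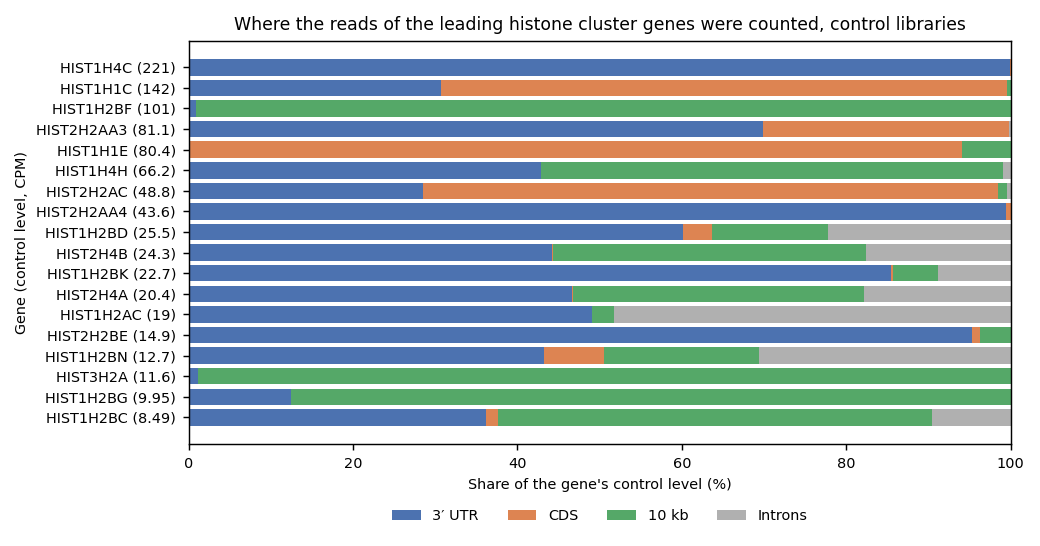
Share of the control level (%, horizontal bars, mean of the 3 line means of 9 CTRL sh libraries) that was counted in the 3′ UTR, CDS, 10 kb and intron tables for the 18 members with the highest level, given in brackets in CPM. HIST1H4C was counted nearly wholly in its 3′ UTR, HIST1H1E mainly in its coding sequence and HIST1H2BF mainly in the 10 kb downstream.

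Near-identical copies need care. The coding sequence of HIST2H2AA3 occurs in full in HIST2H2AA4, yet 5086 coding reads were assigned to the former and 62 to the latter, against 21997 and 16624 in their 3′ UTRs. HIST2H4A and HIST2H4B, and HIST2H3A and HIST2H3C, are further pairs of this kind, with 2934 and 3292, and 415 and 356, reads in the 3′ UTR. How reads that match both copies were assigned is not given in the sources used here, so the members of each pair are uncertain as separate measurements and are best read together. Counts and medians of members below still take each copy as a gene of its own.

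The 3 control groups were compared to see whether the lines differ before any knockdown. All 19 members tested differed among the lines in the 3′ UTR table (67.2% of all genes did), 7 of 12 in coding sequence (44.7% of all genes) and 22 of 51 in the 10 kb table (18.6% of all genes). Of the 19, 12 were highest in LNCaP95, 5 in LNCaP and 2 in 22Rv1. In bulk RNA, fewer cells that express a gene and less RNA per cell cannot be told apart.

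The widest difference was in HIST1H4H. Its 3′ UTR had 2.20 ± 0.84 CPM in LNCaP, 82.9 ± 10.0 in LNCaP95 and 0.0394 ± 0.0682 in 22Rv1 (SD, n = 3 libraries each, adjusted p = 4.87e-12 by edgeR), and the last value rested on 1 read in 3 libraries. Its 10 kb region followed the same order, with 8.33 ± 2.52, 101.8 ± 23.4 and 1.54 ± 0.206. HIST1H2BD (H2B) was likewise highest in LNCaP95, at 38.9 ± 5.41 against 5.24 ± 0.766 in LNCaP and 1.88 ± 0.85 in 22Rv1 (adjusted p = 4.93e-09 by edgeR). HIST1H1C had 81.5 ± 6.5 in LNCaP95, 39.9 ± 5.19 in LNCaP and 9.18 ± 3.76 in 22Rv1 in its 3′ UTR (adjusted p = 1.31e-08 by edgeR), although its coding sequence was not among those that differed.

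HIST1H4C and HIST2H2AC went the other way. HIST1H4C had 407 ± 103 CPM in 22Rv1 against 129 ± 33.6 in LNCaP and 128 ± 11.9 in LNCaP95 (adjusted p = 5.35e-06 by edgeR, n = 3 each), and the last 2 did not differ in the pairwise contrast (adjusted p = 0.258 by edgeR). The 3′ UTR of HIST2H2AC had 25.5 ± 1.3, 6.94 ± 1.19 and 9.36 ± 3.52 in the same order (adjusted p = 3.27e-05 by edgeR), and again LNCaP and LNCaP95 did not differ (adjusted p = 0.782 by edgeR). In coding sequence 5 of the 7 called members were highest in 22Rv1, namely HIST1H1B, HIST1H1D, HIST1H1E, HIST2H2AA3 and HIST2H2AC. HIST1H1E had 107 ± 27.4 there against 59.7 ± 9.56 in LNCaP and 59.6 ± 8.01 in LNCaP95 (adjusted p = 4.03e-05 by edgeR). The coding levels of HIST2H2AC and HIST2H2AA3 in 22Rv1 were 57.9 ± 38.2 and 39.5 ± 16.7. These means include 22Rv1 CTRL sh replicate 1, which stood apart in coding reads. Leaving out 1 library gave 5 to 9 called members in this coding comparison. Across the 27 libraries the genes whose 3′ UTR level ran most like that of HIST1H4C were IL17RE (Pearson r of log2 levels 0.94), NMT1 (0.91), MCM7 (0.91), ERF (0.90) and E2F2 (0.90) among 10831 genes compared. These values describe libraries that share lines and shRNAs.

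The main question was what loss of CPSF1 does to poly(A) ends in these genes. The summed 3′ UTR level of the members was 359, 404 and 459 CPM in the LNCaP controls and 764 to 1016 (median 882) in the 6 knockdown libraries, with no overlap. In LNCaP95 it was 582, 618 and 653 against 546 to 789 (median 632), and in 22Rv1 453, 483 and 624 against 514 to 659 (median 584), and these groups overlapped. In the 22Rv1 controls HIST1H4C averaged 407 CPM of a mean sum of 520, so the sum there is mostly the level of that gene. It averaged 129 of 407 in the LNCaP controls and 128 of 618 in those of LNCaP95. The coding sum overlapped in every line, with control and knockdown medians of 174 and 186 for LNCaP, 198 and 236 for LNCaP95, and 279 and 273 for 22Rv1.

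The 10 kb sum was higher after knockdown without overlap in all 3 lines. The LNCaP median was 218 (212 to 232) before and 376 (336 to 413) after, that of LNCaP95 309 (305 to 343) and 443 (409 to 489), and that of 22Rv1 150.5 (142 to 168) and 213 (189 to 233). This rise was shared with other genes. With library sizes taken over all 4 tables, all tested 10 kb regions had a median log2 change of 0.62 for LNCaP, 1.11 for LNCaP95 and 0.73 for 22Rv1. Scaled to the 10 kb table itself, as in the tests below, these medians were 0.13, 0.22 and 0.19, so a call in this table is relative to other 10 kb regions.

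**Figure D2:**
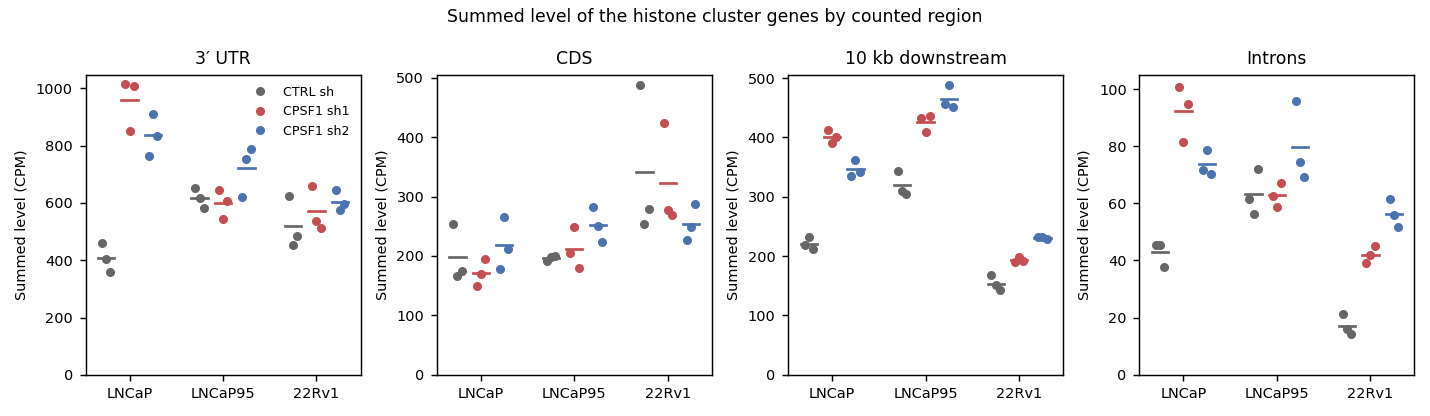
Summed level of the histone cluster genes (vertical axis, CPM over the 4 tables) in each of the 27 libraries, for the 3′ UTR, CDS, 10 kb and intron tables. Points are libraries, short lines are means of 3, and colours give CTRL sh, CPSF1 sh1 and CPSF1 sh2. In the 3′ UTR panel the 6 LNCaP knockdown libraries sit at 764 and above, over the 3 controls, while the groups overlap in LNCaP95 and 22Rv1.

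Knockdown in LNCaP raised 11 of 21 tested members and lowered 2 in the 3′ UTR table, against a background of 8.24% of all genes higher and 10.1% lower. Their median log2 change was 1.07, against 0.02 over all genes. LNCaP95 gave 3 higher and 6 lower of 19 (background 15.2% and 15.2%), with a median of -0.27 against 0.01. In 22Rv1 7 of 15 rose and 1 fell (background 0.678% and 0.791%), with a median of 1.11 against -0.01. These counts take both copies of a near-identical pair as separate genes. Both copies of HIST2H2AA3 and HIST2H2AA4 were among those that rose in LNCaP and 22Rv1. So were both of HIST2H3A and HIST2H3C in LNCaP, and both of HIST2H4A and HIST2H4B in LNCaP95 and 22Rv1. Since the filter used control and knockdown libraries together, a member with few control reads could pass mainly on knockdown reads. In LNCaP this concerns HIST2H3A, HIST2H3C and HIST1H2BJ (control mean 1.04 CPM), all called higher. Such members could hardly be called lower, which can raise the count of rises and the median. Counts with 2 CPM required in each library are given in the last section. The LNCaP95 count went from 9 to 5 without CTRL sh replicate 1 or 2, or CPSF1 sh2 replicate 2 or 3. Levels of CTRL sh and knockdown libraries did not overlap for 11 members in LNCaP (10 of them higher), 4 in LNCaP95 (2 higher) and 8 in 22Rv1 (6 higher). Among all genes tested there, 12% lay higher and 7.19% lower without overlap for LNCaP, 13.2% and 11.4% for LNCaP95, and 3.1% and 4.23% for 22Rv1, so the LNCaP95 count is near its background. In all, 19 members were called in at least 1 line, 12 only as higher, 5 only as lower, and 2 in both directions. By family, those that rose in LNCaP were 1 H1, 3 H2A, 4 H2B, 2 H3 and 1 H4 gene. All 12 that were only higher carry AATAAA in the counted region, as do 19 of the 22 members tested in any line and 3 of the 5 that were only lower.

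HIST1H1C was measured at 34.2, 41.1 and 44.4 CPM in the LNCaP controls and at 116 to 149 (median 132) after knockdown. All 6 knockdown libraries lay above all controls, a log2 change of 1.58 ± 0.13 (adjusted p = 2.93e-07). In 22Rv1 the values were 4.92, 10.6 and 12 against 19.5 to 51.5 (median 34.3), again without overlap, and the change was 1.87 ± 0.26 (adjusted p = 0.00204). In LNCaP95, where the gene started highest, they were 74.1, 83.8 and 86.5 against 55.4 to 73.9 (median 68.0), a change of -0.33 ± 0.12 (adjusted p = 0.0456). The LNCaP95 call was lost on leaving out any library except CPSF1 sh1 replicate 1 and CPSF1 sh2 replicate 1 (adjusted p up to 0.179). Its coding sequence had 71.7, 79.6 and 121 in the LNCaP controls and 68.0 to 129 (median 90.4) after knockdown, a change of 0.04 ± 0.15 (adjusted p = 0.94). The difference between the 3′ UTR and the coding change was not tested.

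HIST2H2BE, an H2B gene whose poly(A) signal lies 1781 bases beyond the coding end, had 7.53, 10.0 and 15.5 CPM in the LNCaP controls and 42.4 to 83.2 (median 53.8) after knockdown. The log2 change was 2.27 ± 0.22 (adjusted p = 1.34e-06), the largest of the members called in this table. In 22Rv1 it went from 3.77, 6.61 and 7.12 to between 10.3 and 28.6 (median 16.8), a change of 1.62 ± 0.26 (adjusted p = 0.00454). LNCaP95 had 18.9, 26.3 and 32.3 against 14.0 to 27.1 (median 23), with overlap and no call (-0.27 ± 0.18, adjusted p = 0.259).

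The HIST2H2AA3 and HIST2H2AA4 pair moved alike. HIST2H2AA3 had 57.3, 65.8 and 86.4 CPM in the LNCaP controls against 161 to 257 (median 196) after knockdown, a log2 change of 1.43 ± 0.19 (adjusted p = 4.12e-05). HIST2H2AA4 changed by 1.39 ± 0.20 (adjusted p = 0.000113). In 22Rv1 HIST2H2AA3 had 17.4, 18.4 and 22.1 against 49.4 to 97.4 (median 64.3), with changes of 1.80 ± 0.21 and 2.03 ± 0.23 for the pair (adjusted p = 0.000533 for each). Neither was called in LNCaP95, where the changes were 0.25 ± 0.16 and 0.20 ± 0.17. The coding reads of HIST2H2AA3 overlapped between groups in every line.

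**Figure D3:**
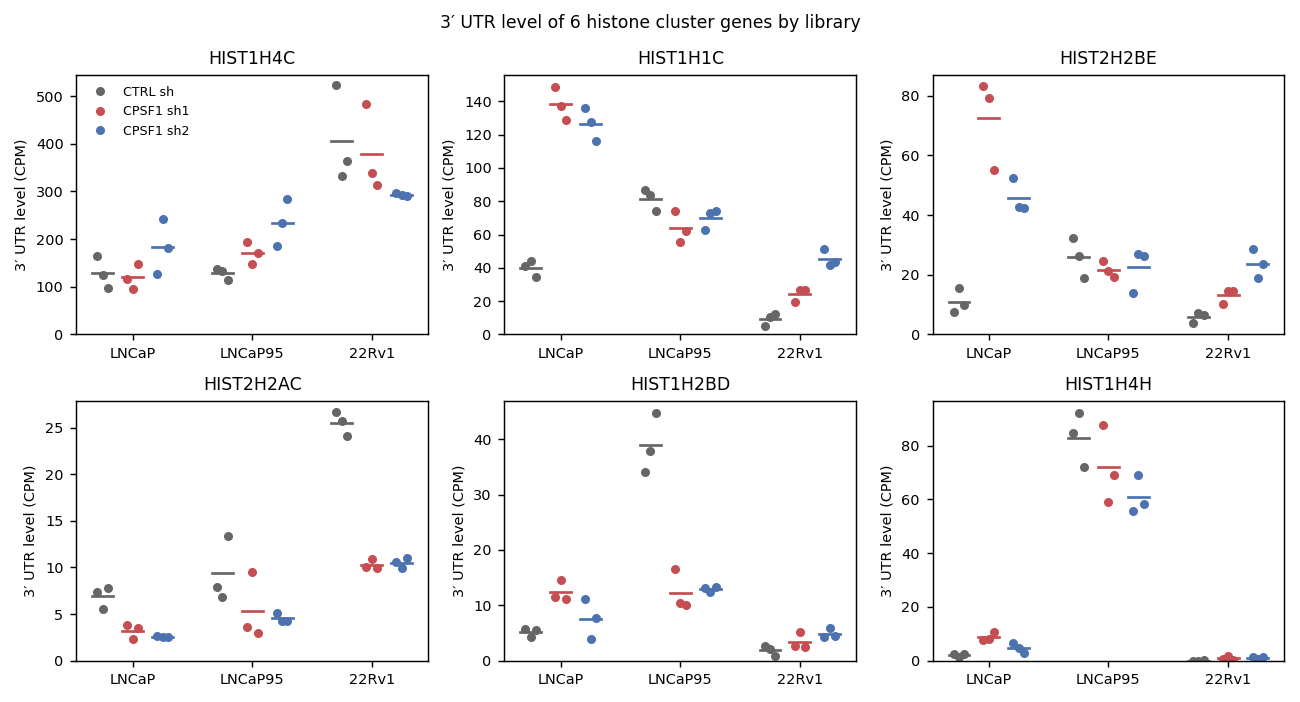
3′ UTR level (vertical axis, CPM) of HIST1H4C, HIST1H1C, HIST2H2BE, HIST2H2AC, HIST1H2BD and HIST1H4H in the 27 libraries, by line and shRNA, with short lines for the mean of 3 libraries. HIST1H1C and HIST2H2BE lie higher after knockdown in LNCaP and 22Rv1 but not in LNCaP95, and HIST2H2AC lies lower in 22Rv1, where 24.1 to 26.6 in the controls compares with 9.94 to 11.

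Of the other H2B and H2A genes, HIST1H2BK had 16.3, 27.6 and 33.8 CPM in the LNCaP controls and 45.1 to 77.0 (median 59.0) after knockdown, a log2 change of 1.07 ± 0.19 (adjusted p = 0.000677). In 22Rv1 it had 6.42, 6.66 and 13.1 against 11 to 26.6 (median 18.4), with overlap and a change of 1.08 ± 0.25 (adjusted p = 0.0386). That call was lost on leaving out CTRL sh replicate 2, CPSF1 sh1 replicate 2 or 3, or any CPSF1 sh2 library (adjusted p up to 0.167). HIST1H2AC rose in LNCaP from 6.64, 8.05 and 12 to between 12.4 and 31.3 (median 26.7), by 1.29 ± 0.23 (adjusted p = 0.000663). HIST1H2BJ rose there by 1.5 ± 0.36 (adjusted p = 0.00733) from 0.894 to 1.22 CPM to between 1.82 and 4.67.

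The H4 and H3 genes were less uniform. HIST1H4C, the most abundant member, had 115, 132 and 137 CPM in the LNCaP95 controls and 148 to 285 (median 189.9) after knockdown, without overlap, a log2 change of 0.61 ± 0.15 (adjusted p = 0.00578). It was not called in LNCaP (0.10 ± 0.27) or in 22Rv1 (-0.29 ± 0.23), where 333, 363 and 524 in the controls overlapped 291 to 483. HIST2H4A and HIST2H4B, a near-identical pair, rose in 22Rv1 by 1.35 ± 0.22 (adjusted p = 0.00501) and 1.39 ± 0.22 (adjusted p = 0.00445), and in LNCaP95 by 0.54 ± 0.19 and 0.54 ± 0.18. HIST2H4B went from 4.37, 4.92 and 6.59 to between 10.6 and 18.3 (median 13.1) in 22Rv1. Both 22Rv1 calls were lost without CTRL sh replicate 3 (adjusted p = 0.0757 and 0.0666). In LNCaP95 both were lost without CTRL sh replicate 1 or 2 or CPSF1 sh2 replicate 2 or 3, and HIST2H4A also without CPSF1 sh1 replicate 2 or 3 (adjusted p up to 0.166 and 0.141).

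Other H3 and H4 calls in LNCaP rested on few reads. HIST1H4H rose from 1.23, 2.68 and 2.69 CPM to between 2.74 and 10.9 (median 7.16), by 1.48 ± 0.38 (adjusted p = 0.0102), and the call was lost without CTRL sh replicate 2 (adjusted p = 0.0767). HIST2H3A and HIST2H3C, also a near-identical pair, rose by 2.03 ± 0.45 and 1.93 ± 0.52 from 23 and 20 reads in the 3 controls. The HIST2H3C call was lost without CTRL sh replicate 1 or 2 (adjusted p up to 0.083). HIST1H4J fell by 1.41 on the log2 scale (SE 0.43, adjusted p = 0.0295), from 71 reads in 3 controls to 52 in 6 knockdown libraries, with overlap. It was lost without CTRL sh replicate 2 or 3, CPSF1 sh1 replicate 1 or 2, or CPSF1 sh2 replicate 1 (adjusted p up to 0.16).

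HIST2H2AC, an H2A gene without AATAAA in its counted region, fell in all 3 lines. In 22Rv1 its 3′ UTR had 24.1, 25.7 and 26.6 CPM in the controls and 9.94 to 11 (median 10.3) after knockdown, a log2 change of -1.28 ± 0.15 (adjusted p = 0.000533). In LNCaP it had 5.59, 7.41 and 7.82 against 2.33 to 3.87 (median 2.62), a change of -1.40 ± 0.26 (adjusted p = 0.00103). In LNCaP95 it had 6.81, 7.91 and 13.4 against 2.93 to 9.52 (median 4.28), with overlap, a change of -0.95 ± 0.34 (adjusted p = 0.0421). The LNCaP95 call was kept only without CTRL sh replicate 2 or CPSF1 sh1 replicate 2, and its adjusted p reached 0.314 otherwise. Its coding reads, which are more numerous, overlapped between groups in each line, at 17.1 to 31.0 against 15.8 to 28.7 in LNCaP.

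Further falls were called in LNCaP95. HIST1H2BD had 34.1, 37.8 and 44.7 CPM in the controls and 10.0 to 16.5 (median 12.8) after knockdown, a log2 change of -1.68 ± 0.16 (adjusted p = 8e-07). The same gene had 4.36 to 5.75 against 3.89 to 14.6 in LNCaP, with overlap and no call (0.78 ± 0.27, adjusted p = 0.0505). HIST1H2BN fell by 0.91 on the log2 scale (SE 0.23, adjusted p = 0.0057) and HIST1H2AE by 0.96 (SE 0.27, adjusted p = 0.0119), and the latter was lost without CTRL sh replicate 2 (adjusted p = 0.098). HIST1H2BC changed in opposite directions, by -1.40 ± 0.33 in LNCaP95 (adjusted p = 0.0036) and by 1.79 ± 0.45 in LNCaP (adjusted p = 0.00976). Its levels were low, 2.77 to 6.81 against 1.46 to 3.05 in LNCaP95 and 0.856 to 2.30 against 1.82 to 9.31 in LNCaP. The LNCaP call was lost without CTRL sh replicate 2 or 3 (adjusted p up to 0.0693).

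**Figure D4:**
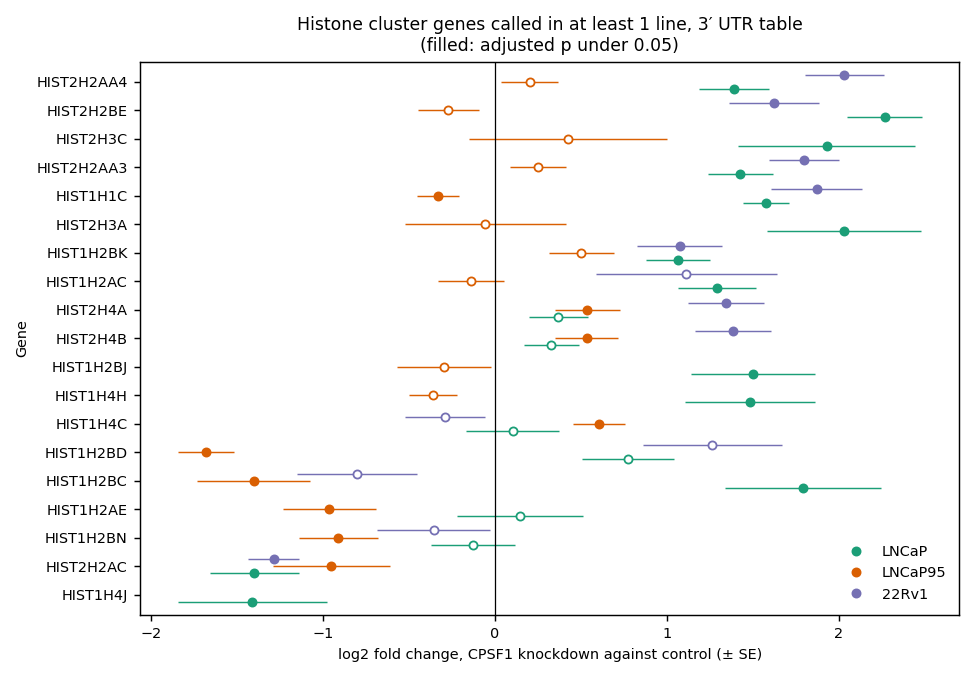
Log2 fold change of CPSF1 knockdown against control (horizontal axis, ± SE) in the 3′ UTR table for the 19 members called in at least 1 line, coloured by line, with filled points where the adjusted p was under 0.05. HIST2H2BE in LNCaP has the highest point at 2.27, and HIST2H2AC lies below 0 in all 3 lines.

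Whether the response differed between the lines was tested over the 27 libraries. Of 21 members in the 3′ UTR table, 13 differed between lines (15.9% of all genes did). HIST1H1C had the smallest adjusted p (7.03e-08 by edgeR), with changes of 1.58 in LNCaP, -0.33 in LNCaP95 and 1.87 in 22Rv1. HIST2H2BE and HIST1H2BD followed (both 9.60e-07). HIST2H2AC and HIST1H4C were not among the 13. Of the 13, HIST1H2BG, HIST1H2AE, HIST1H2BJ and HIST1H4H were too low in 22Rv1 to be tested in that line alone. By edgeR 0 of 10 members differed for coding sequence, and 1 at an unadjusted p under 0.05 (6.52% of all genes were called), and 14 of 54 did in the 10 kb table (5.54% of all genes).

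For coding sequence no change was called among the few members that could be tested, which is near what the shares of all genes called would give. No member passed in any line, of 11 tested in LNCaP (background 3.8% higher and 3.31% lower), 10 in LNCaP95 (7.51% and 4.99%) and 11 in 22Rv1 (0.567% and 0.445%). At an unadjusted p under 0.05 the counts were 0, 2 and 4, beside 18.5%, 25.2% and 10.9% of all genes, and DESeq2 called 0 in each. HIST1H1E had 51.9, 56.8 and 70.4 CPM in the LNCaP controls and 42.1 to 75.2 (median 49.0) after knockdown, a log2 change of -0.14 ± 0.15. It had 85.2, 98.5 and 138 against 72.4 to 146 (median 89.8) in 22Rv1, a change of -0.15 ± 0.14. HIST1H1B, a linker histone with 12.7, 16.1 and 17.1 in the 22Rv1 controls against 6.71 to 14.1, changed by -0.48 ± 0.19 (adjusted p = 0.309).

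Of 52 members tested in the 10 kb table, 14 rose and 1 fell in LNCaP (background 9.52% higher and 5.2% lower), with a median log2 change of 0.66 against 0.13 over all genes. LNCaP95 gave 8 higher and 15 lower of 51 (17.6% and 10.1%), with a median of -0.48 against 0.22. In 22Rv1 10 of 55 rose and 2 fell (7.26% and 2.73%), with a median of 0.96 against 0.19. The filter took the mean CPM over control and knockdown libraries together, so a member could pass on knockdown reads nearly alone. Among those called higher in 22Rv1, HIST2H2BE had 0 control reads, HIST1H3E had 1, and HIST1H2BJ and HIST2H2BF had 2 each. A member with so few control reads could hardly be called lower, which can raise the count of rises and the median in any line. How far it did so was not tested. With library sizes over all 4 tables LNCaP had 25 higher and 0 lower (17.3% and 1.05% of all genes), LNCaP95 had 15 and 5 (35.6% and 1.62%), and 22Rv1 had 21 and 1 (18.8% and 0.397%). On that scale the share of members called higher in LNCaP95 was below that of all genes. Leaving out CTRL sh replicate 2 reduced the LNCaP count from 15 to 8, and leaving out CTRL sh replicate 3 reduced the 22Rv1 count from 12 to 8. Without the shallow 22Rv1 CTRL sh replicate 1 that count was 11. In all 33 members were called in at least 1 line, 17 only as higher, 14 only as lower and 2 in both directions.

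HIST2H2BF (H2B) and HIST1H2AC (H2A) rose in all 3 lines. The 10 kb region of HIST2H2BF had 0.112, 0.128 and 0.244 CPM in the LNCaP controls, which was 4 reads in all, and 7.0 to 12.1 (median 7.73) after knockdown, a log2 change of 5.02 ± 0.49 (adjusted p = 5.17e-17). In LNCaP95 it had 0.110, 0.393 and 0.922 against 2.93 to 12.5 (median 9.88), a change of 3.08 ± 0.47 (adjusted p = 9.34e-08). In 22Rv1 the controls held 2 reads and the knockdown libraries 203, a ratio of levels of 30.4 (95% counting interval 8.31 to 253). Its 3′ UTR was nearly silent, with 81 reads in 27 libraries. HIST1H2AC went from 0.122, 0.638 and 0.783 to between 4.32 and 8.01 (median 6.93) in LNCaP, by 3.04 ± 0.41 (adjusted p = 8.19e-10). It changed by 1.60 ± 0.45 in LNCaP95 (adjusted p = 0.00361) and by 2.82 ± 0.66 in 22Rv1 (adjusted p = 0.00118), from 4 control reads. Neither region shares bases with the 10 kb region of another gene.

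Further H2B genes were among those that rose in 1 or 2 lines. HIST1H2BK went from 0, 0.367 and 0.447 CPM to between 3.11 and 7.76 (median 5.30) in LNCaP, by 3.56 ± 0.50 (adjusted p = 2.99e-09), while in LNCaP95 (0.21 ± 0.36) and 22Rv1 (0.18 ± 0.43) it was not called. HIST2H2BE had no read in the 22Rv1 controls and 100 after knockdown, at least 9.99-fold higher against a floor of 3 reads over the 3 controls, and this region shares 69.9% of its bases with that of HIST2H2AB. In LNCaP it changed by 1.68 ± 0.48 (adjusted p = 0.0071), a call lost without CTRL sh replicate 2 (adjusted p = 0.0624). HIST1H2BJ had 2 control reads and 176 after knockdown in 22Rv1, a ratio of 26.4 (7.19 to 220). In LNCaP it had 0.244, 0.638 and 0.671 CPM against 1.82 to 5.16 (median 2.97), without overlap, a log2 change of 1.96 ± 0.50 (adjusted p = 0.00183). HIST1H3E (H3) had 1 and 82 reads in 22Rv1, a ratio of 24.6 (4.29 to 983), and was lost without CTRL sh replicate 3 (adjusted p = 0.111). It also rose in LNCaP, by 1.95 ± 0.51 (adjusted p = 0.00297), from 0.255, 0.447 and 0.733 CPM to between 1.25 and 4.03 (median 3.23). Among members with 1 or 2 control reads, HIST1H1T (ratio 13.3, 3.49 to 113) and HIST1H2BE (12.2, 3.18 to 104) in LNCaP lost their call without any 1 of the 3 controls, and also without CPSF1 sh1 replicate 3 and CPSF1 sh1 replicate 1, in that order (adjusted p up to 0.389 and 0.144). HIST1H2BE was also called in LNCaP95 (1.86 ± 0.73, adjusted p = 0.0452), and lost there without CTRL sh replicate 1 or 3, CPSF1 sh1 replicate 2 or any CPSF1 sh2 library (adjusted p up to 0.149).

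HIST1H4H, the most abundant of the H4 genes in this table, had 5.81, 8.31 and 10.9 CPM in the LNCaP controls and 26.4 to 37.7 (median 32.8) after knockdown, a log2 change of 1.33 ± 0.22 (adjusted p = 3.64e-07). In 22Rv1 it had 1.39, 1.45 and 1.77 against 4.35 to 8.87 (median 6.84), a change of 1.43 ± 0.34 (adjusted p = 0.00165). In LNCaP95 it had 80.0, 99.0 and 126 against 156 to 217 (median 176), without overlap, yet was not called relative to the other 10 kb regions (-0.21 ± 0.22, adjusted p = 0.529). With library sizes over all 4 tables its change there was 0.70 (adjusted p = 0.00197).

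The clearest fall in that line was HIST1H2AD (H2A), with 11.9, 12.3 and 12.7 CPM in the controls and 1.00 to 3.66 (median 2.05) after knockdown, a log2 change of -3.56 ± 0.30 (adjusted p = 3.47e-18). Its region shares 82.5% of its bases with that of HIST1H3D. HIST1H1E had 8.51, 8.57 and 11.2 against 4.38 to 7.18 (median 5.02), a change of -1.88 ± 0.27 (adjusted p = 1.51e-08). HIST2H3A and HIST2H3C changed by -2.14 ± 0.33 (adjusted p = 1.71e-07) and -1.69 ± 0.34 (adjusted p = 3.9e-05). None of these levels overlapped except that of HIST2H3C. With library sizes over all 4 tables the first 3 of these genes stayed called and HIST2H3C did not (-0.85, adjusted p = 0.0657).

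Members with lower levels moved as well. HIST1H4J (H4) had 0.524, 0.769 and 1.04 CPM in the LNCaP95 controls and 0 to 0.379 (median 0.074) after knockdown, without overlap, a log2 change of -3.61 ± 0.86 (adjusted p = 0.000624). In the same line the H3 gene HIST2H3PS2 changed by -1.99 ± 0.40 (adjusted p = 4.52e-05) and the H2B gene HIST1H2BO by -1.36 ± 0.33 (adjusted p = 0.00073), both with overlapping levels. HIST1H2BO was not called with library sizes over all 4 tables (-0.44, adjusted p = 0.385). HIST1H2BH (H2B) had 1.74, 2.24 and 4.34 CPM in the 22Rv1 controls and 0.423 to 1.89 (median 1.05) after knockdown, a change of -1.81 ± 0.43 (adjusted p = 0.00131). HIST3H2BB (H2B) rose without overlap in LNCaP (2.12 ± 0.57, adjusted p = 0.00372) and LNCaP95 (1.49 ± 0.57, adjusted p = 0.0394). The first of these calls was lost without CTRL sh replicate 2 (adjusted p = 0.068) and the second without CTRL sh replicate 1 or 3 or any CPSF1 sh1 library (adjusted p up to 0.216).

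Further falls were called only on the scale of the 10 kb table. HIST1H2BF, the most abundant member of the table, was called lower in each line, by -0.55 ± 0.19 in LNCaP (adjusted p = 0.0315), -1.12 ± 0.22 in LNCaP95 (2.09e-05) and -0.83 ± 0.16 in 22Rv1 (6.46e-05, all by edgeR). Its levels overlapped throughout, 117 to 135 against 109 to 162 in LNCaP, 69.9 to 85.1 against 61.1 to 79.9 in LNCaP95 and 84.9 to 119.6 against 66.2 to 92.6 in 22Rv1. With library sizes over all 4 tables it was not called, at -0.03, -0.22 and -0.35. The LNCaP call was also lost without any of the 3 controls, CPSF1 sh1 replicate 1 or CPSF1 sh2 replicate 1 or 3 (adjusted p up to 0.125). HIST1H2BG, HIST1H4D, HIST2H4A and HIST3H2A, called lower in LNCaP95, had positive changes of 0.24, 0.08, 0.10 and 0.23 under that scale. Of the 4, the HIST1H2BG call was lost without CTRL sh replicate 1 or 3 or CPSF1 sh2 replicate 2 (adjusted p up to 0.202), HIST3H2A without CTRL sh replicate 2, CPSF1 sh1 replicate 3 or CPSF1 sh2 replicate 1 (up to 0.309) and HIST2H4A without CTRL sh replicate 1 (0.0608). HIST1H4D lost it without CTRL sh replicate 2 or 3, CPSF1 sh1 replicate 3 or CPSF1 sh2 replicate 2 or 3 (up to 0.203). HIST1H2BG had 15.4, 20.5 and 24.6 CPM in those controls and 19.7 to 31.3 (median 26.9) after knockdown.

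**Figure D5:**
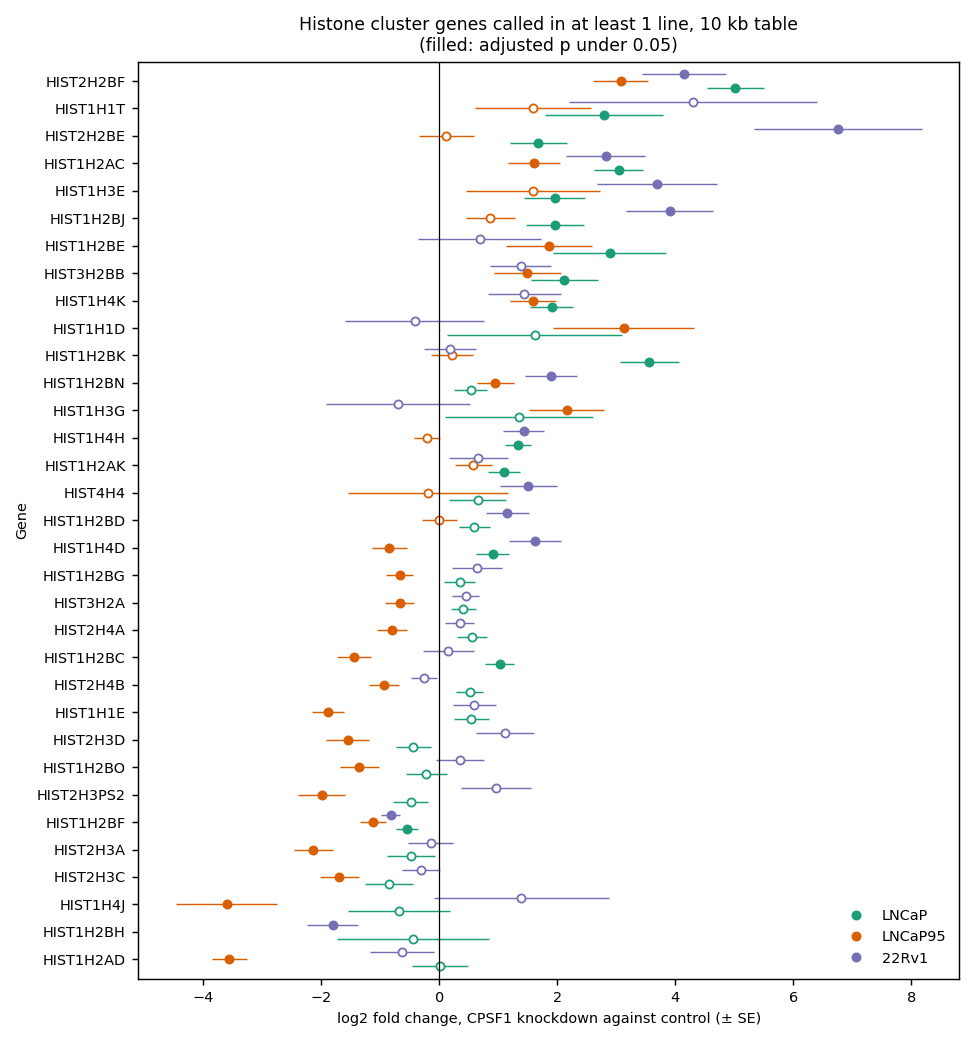
Log2 fold change of CPSF1 knockdown against control (horizontal axis, ± SE) in the 10 kb table, scaled to that table, for the 33 members called in at least 1 line, with filled points where the adjusted p was under 0.05. HIST2H2BF and HIST1H2AC are called higher in all 3 lines and HIST1H2BF lower in all 3, and HIST1H2AD has its called point at -3.56 in LNCaP95.

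The balance between the 10 kb region and the 3′ UTR was tested within libraries for genes with reads in both. In LNCaP 2 of 18 members shifted towards the 10 kb region and 2 away from it (background 8.39% and 1.95%), with a median log2 change of the ratio of 0.13 against 0.30 over all genes. LNCaP95 gave 3 and 4 of 16 (21.2% and 6.82%), with a median of -0.05 against 0.53, and 22Rv1 2 and 1 of 14 (6.65% and 0.803%), with a median of 0.85 against 0.33. HIST1H2AC shifted downstream in LNCaP (1.77 ± 0.56, adjusted p = 0.0381) and LNCaP95 (1.79 ± 0.50, adjusted p = 0.00688), and HIST1H2BK in LNCaP (2.56 ± 0.59, adjusted p = 0.00397). The HIST1H2AC shift in LNCaP was lost without CTRL sh replicate 1 or 3, CPSF1 sh1 replicate 3 or CPSF1 sh2 replicate 1 or 3 (adjusted p up to 0.302).

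HIST1H2BN shifted downstream in LNCaP95 (1.86 ± 0.42) and 22Rv1 (2.31 ± 0.61), HIST1H2BD in LNCaP95 (1.64 ± 0.37) and HIST2H2AC in 22Rv1 (2.36 ± 0.72). HIST2H3A and HIST2H3C shifted away from it in LNCaP (-2.50 ± 0.67 and -2.77 ± 0.75) and LNCaP95 (-2.06 ± 0.58 and -2.02 ± 0.60), as did HIST2H4A and HIST2H4B in LNCaP95 (-1.36 ± 0.34 and -1.49 ± 0.35) and HIST2H4B in 22Rv1 (-1.62 ± 0.35). All shifts away thus came from members of near-identical pairs, whose copies are uncertain as separate measurements. In the newer annotation the 10 kb regions of HIST2H4A and HIST2H4B also cover 3612 and 6440 exonic bases of long non-coding RNA genes. Which transcript gave the reads there was not tested. With library sizes over all 4 tables the 4 LNCaP95 shifts away and that of HIST2H4B in 22Rv1 were not called. All 3 calls in 22Rv1 were lost without CTRL sh replicate 3 (adjusted p up to 0.211). In LNCaP the count fell from 4 to 1 without CTRL sh replicate 1 and to 2 without CTRL sh replicate 2, and the HIST2H3A and HIST2H3C calls went with either (adjusted p up to 0.0766 and 0.114). HIST2H2AC in 22Rv1 was also lost without CTRL sh replicate 2, CPSF1 sh1 replicate 2 or CPSF1 sh2 replicate 1 or 3, and HIST2H3C in LNCaP95 without CTRL sh replicate 3 (adjusted p = 0.06).

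Genes that act with the members were read from fixed lists in the 3′ UTR table. Of 21 factors for histone and poly(A) 3′ ends, SLBP, NPAT and the U7 proteins LSM10 and LSM11 among them, 0 of 20 tested were called in LNCaP by edgeR (2 at an unadjusted p under 0.05) and 1 of 20 in 22Rv1, SNRPD3, a protein of the Sm ring (-0.56 ± 0.11, adjusted p = 0.0118). In LNCaP95 CSTF2, a cleavage stimulation factor (0.73 ± 0.26), and LSM10 (0.78 ± 0.20) rose and SNRPD3 fell (-0.40 ± 0.14). Its median log2 change was 0.03 for LNCaP, 0.18 for LNCaP95 and -0.06 for 22Rv1. The replication-independent histone genes mostly have ordinary polyadenylated mRNA, but H2AFX on that list also carries the stem-loop within 100 bases of its coding end. Of these genes 0 of 12 rose and 3 fell in LNCaP, namely H2AFJ (-1.66 ± 0.19), H1FX (-0.42 ± 0.14) and H3F3A (-0.36 ± 0.11). In LNCaP95 H2AFY2 rose (1.56 ± 0.38) and H3F3B and H3F3C fell, of 11 tested, and 0 of 11 were called in 22Rv1 by edgeR (1 at an unadjusted p under 0.05). Beside the counts of both lists, 8.24% of all genes were higher and 10.1% lower in LNCaP. The shares were 15.2% and 15.2% in LNCaP95, and 0.678% and 0.791% in 22Rv1. The LNCaP95 counts of both lists lay near or below these shares.

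Genes of S phase and proliferation moved in LNCaP95. There 11 of 20 were higher and 2 lower, beside 15.2% and 15.2% of all genes, with a median log2 change of 0.45 against 0.01 over all genes. The replication helicase subunit MCM6 (1.29 ± 0.22) and cyclin E2, CCNE2 (1.52 ± 0.34), rose, and CCNA2 (-0.99 ± 0.13) and MKI67 (-0.48 ± 0.16) fell. In LNCaP (8.24% of all genes higher and 10.1% lower) 3 of 20 rose, CCNE1 and CCNE2 among them, and CDT1 fell, with a median of 0.21. In 22Rv1 0 of 20 were called by edgeR (5 at an unadjusted p under 0.05), with a median of -0.11. The part of cell cycle distribution in the histone levels was not tested.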

How the data were processed

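PAC-seq libraries of total RNA from LNCaP, LNCaP95 and 22Rv1 were compared, 3 per group. Per the methods and the processing notes of the labels, the authors mapped reads with HISAT2 2.1.0 to hg19, annotated poly(A) sites with DPAC and counted them by strand with featureCounts (Subread 2.0.3) per gene in 3′ UTRs lengthened by 300 bases, CDS, introns and the 10 kb downstream, which leaves out exons and 3′ UTRs of the same strand. They deposited these as raw counts without normalization, 1 table per region. Per the methods DPAC drops a site call where over 12 of the 20 genomic bases downstream are A, and what that removed from the counts of each region is not given in the sources used here.

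The members and lists were chosen with earlier results of these data known. Each table was fitted over all genes with edgeR 4.0.16 in R 4.3.3 (quasi-likelihood F-test, TMM, library sizes of that table, mean CPM above 2, Benjamini-Hochberg), with 3 CTRL sh against 6 CPSF1 sh libraries per line. Further fits compared the 9 control libraries by line, the 10 kb to 3′ UTR ratio within libraries, and the response between lines. Levels are CPM over the 4 tables. Ratios with 1 to 3 control reads have exact 95% intervals and bounds use a floor of 3 reads, both for counting error only. The replicates are named biological, without word on separate infections, so p-values measure the spread between these libraries. Fits were checked on simulated counts, with the same spread in every gene and changes planted only in genes well above the filter. That check does not bear on calls from few control reads.

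Named members were CPSF1, the 12, 8 and 8 highest in the 3′ UTR, CDS and 10 kb tables, up to 8 called members each way per table, called ratios up to 6 each way per line, and up to 6 called genes per list. Members named beyond this, for the response between lines, opposite changes, reversals or sequence, were chosen after their values were seen. Alternatives were DESeq2 1.42.0 (with its own size factors), library sizes over 4 tables, other filters, each shRNA alone, a replicate block and leaving out each library. The intron table was described without a test, and some of the cell type markers are not reported here. Motifs were read from GRCh37, and Gencode v44 mapped to that build gave the newer names.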

Additional observations from a re-analysis of the deposited data

Results flagged for a closer look

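The knockdown response of 13 members in the 3′ UTR table differed between the lines in the test of the line-by-knockdown terms (edgeR over 27 libraries). The adjusted p was 7.03e-08 for HIST1H1C, 9.60e-07 for HIST1H2BD and for HIST2H2BE, 0.000207 for HIST2H2AA4, 0.000269 for HIST1H2BC and 0.000318 for HIST2H2AA3 and for HIST1H4H. For the others the adjusted p by edgeR was 0.00768 for HIST1H2AE, 0.0110 for HIST2H4B, 0.0231 for HIST2H4A, 0.0244 for HIST1H2AC, 0.0289 for HIST1H2BG and 0.0441 for HIST1H2BJ. HIST1H2BG had only 0.0407 CPM in the LNCaP controls and 0.0579 in those of 22Rv1. It passed the filter of the single-line tests only in LNCaP95, where it was not called (-0.60). HIST1H2AE, HIST1H2BJ and HIST1H4H did not pass it in 22Rv1, with control means of 0.213, 0.565 and 0.0394 CPM.

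In the 10 kb table the same test singled out 14 members. The adjusted p by edgeR was 7.61e-07 for HIST1H2AD, 1.48e-06 for HIST1H1E, 2.02e-05 for HIST1H2BC, 7.48e-05 for HIST1H4H, 0.000460 for HIST1H4D and 0.000698 for HIST1H2BK. It was 0.00406 for HIST2H3PS2, 0.00454 for HIST2H3D, 0.00895 for HIST2H2BE, 0.0138 for HIST2H3A, 0.0148 for HIST2H4B, 0.0176 for HIST2H4A, 0.0385 for HIST3H2A and 0.0436 for HIST1H2BG. Of these, HIST2H2BE had 0 reads in the 22Rv1 controls.

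Levels in the intron table, which entered no comparison, are described here. The summed intron level of the members was 42.9 ± 4.35 CPM in the LNCaP controls (SD, n = 3) and 83.0 ± 12.4 after knockdown (n = 6), and 17.2 ± 3.6 against 49.2 ± 8.57 in 22Rv1, without overlap in either line. In LNCaP95 it was 63.3 ± 8.05 against 71.4 ± 13.1, with overlap. HIST1H2AC, HIST1H2BD and HIST2H2BF led this table in the controls, with 9.16, 5.65 and 4.39 CPM. No test was run on these values, and the change in the introns of all genes is not given here. Whether the rise was particular to the members was therefore not tested.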

How the results depend on the processing

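Counts of called members changed most with the shRNA and the scaling. With CPSF1 sh1 alone the 3′ UTR count went from 9 to 3 in LNCaP95 and from 8 to 2 in 22Rv1, and the 10 kb count from 23 to 14 and from 12 to 5. With CPSF1 sh2 alone the 3′ UTR count in LNCaP was 8 in place of 13 and the CDS count in LNCaP95 was 2 in place of 0. These fits use 6 libraries per line. With library sizes over all 4 tables the 10 kb count was 25 in place of 15 in LNCaP and 22 in place of 12 in 22Rv1, and 9 in place of 14 members differed in response between lines there. HIST1H2BG, HIST1H4D, HIST2H4A and HIST3H2A in LNCaP95 then changed sign to 0.24, 0.084, 0.10 and 0.23. Requiring 2 CPM in each library gave 8 for the 3′ UTR in LNCaP and 7 for the 10 kb table in 22Rv1, and no filter gave 1 CDS call each in LNCaP95 and 22Rv1. The cause was not tested.

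Leaving out 1 library gave 9 to 14, 5 to 10 and 6 to 9 called members for the 3′ UTR in LNCaP, LNCaP95 and 22Rv1, and 8 to 18, 17 to 22 and 8 to 13 for the 10 kb table. The CDS count in LNCaP95 was 0 to 1. For the ratio LNCaP gave 1 to 5, LNCaP95 6 to 8 and 22Rv1 0 to 4. The interaction count in the CDS table was 0 to 1. Of 33 single calls in the 3′ UTR table, CPSF1 included, 20 held in all 9 omissions, as did 30 of 50 in the 10 kb table and 7 of 14 ratios.

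With the replicate number as a block the counts were 13, 8 and 8 for the 3′ UTR and 14, 22 and 12 for the 10 kb table in LNCaP, LNCaP95 and 22Rv1. The correlation of deviations between libraries with the same number ran from -0.264 to 0.412 over 27 pairs, 9 of them above 0.1, so the numbers were not taken as pairs. DESeq2 called 14, 11 and 8 members for the 3′ UTR and 13, 19 and 10 for the 10 kb table. Depth limits the 10 kb table most, where several control groups held 0 to 4 reads of a member.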
